A study of Mus musculus with 12 samples.

Results

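The potassium channel genes described here are the genes of the expression table whose symbol begins with Kcn, without Kcnj13, that reached at least 1 TPM (the share of a sample's transcripts, scaled by transcript length) in at least 3 of the 12 samples. Of 97 such symbols in the table of 24091 genes, 74 reached that level and 23 did not, and the same filter kept 16498 genes in all. The measured TPM values therefore chose the members. At the edge of the filter, the third-highest sample was 1.04 TPM for Kcnk5 and 1.09 TPM for Kcnh5 just inside, and 0.925 TPM for Kcnmb2 and 0.921 TPM for Kcnh6 just outside. Of the members, 47 reached 1 TPM in all 12 samples. Kcnh8 and Kcnt2 reached it only in the 3 tumors, so their difference from the other groups is partly fixed by the filter. Kcnn4 reached it in the 3 tumors, in 1 sample of cerebellum beside a tumor and in no control. Its difference from the controls is therefore partly fixed as well. Kcnq5 reached 1 TPM in no control, so the same holds for its difference from the controls. Another 8 members were under 1 TPM in all 3 tumors and passed through other samples (Kcna4, Kcnc2, Kcnh3, Kcnk4, Kcnn3, Kcns3, Kcne2 and Kcnmb4os1). A lower level of these 8 in tumors is partly fixed in the same way.

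RNA was sequenced from 4 groups of 3 mouse samples. The tumors were medulloblastomas of the sonic hedgehog (SHH) type from Brca2Δex3-4; Trp53-/- mice GB344, GB359 and GB370, and the adjacent cerebellum came from the same 3 mice, killed at the humane endpoint. The controls were cerebella at postnatal day 90 from 3 Brca2Δex3-4; Trp53+/+ mice (GB361, GB508 and GB512) and 3 Brca2WT; Trp53-/- mice (GB517, GB519 and GB520), so each control genotype carries 1 of the 2 alterations and no group carries neither. The study calls these cerebella age-matched, without an age for each tumor mouse in the sources used here. Tumor growth and the joint loss of both genes therefore cannot be told apart in the comparisons of tumor mice with controls. In Brca2Δex3-4 mice, a Cre driven by the human GFAP promoter removes Brca2 exons 3 and 4 in the developing central nervous system, and Trp53 is lost in the whole body. The tumor and its adjacent tissue share a mouse, and each value below is given in the order of the mouse numbers.

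Potassium channels let potassium leave the cell, which sets the resting voltage, ends each action potential and limits how fast a neuron can fire. Voltage-gated families (Kcna, Kcnb, Kcnc, Kcnd, Kcnh and Kcnq) open on depolarization, inward rectifiers (Kcnj) and two-pore leak channels (Kcnk) hold the cell near rest, and other families respond to calcium (Kcnm and Kcnn) or sodium (Kcnt). The cerebellum is known for its heavy use of them, since Purkinje cells and interneurons fire fast, and granule neurons carry a leak current that keeps them quiet. Granule cell progenitors, from which SHH medulloblastoma arises, divide and have not yet acquired the firing of mature neurons.

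The samples held TPM totals from 999793 to 999876, and read depth is unknown. A list of 8 granule progenitor and cycling genes summed to 2274 to 2852 TPM in tumors and 42.7 to 67.6 TPM in controls, with all 8 called higher. In adjacent cerebellum it summed to 835, 685 and 103 TPM, so the adjacent tissue of GB344 and GB359 stood far above the controls. Markers of granule neurons (5 of 5 genes), Purkinje cells (5 of 5), inhibitory interneurons (5 of 5), oligodendrocytes (6 of 6) and astrocytes with Bergmann glia (5 of 6) were called lower in tumors. Their sums in tumors against controls were 61.1 to 195 against 2059 to 2744 TPM, 49.9 to 266 against 4263 to 7236 TPM, 99.4 to 202 against 1889 to 2774 TPM, 95.7 to 318 against 3455 to 5319 TPM and 356 to 518 against 2670.1 to 3698 TPM. No marker of these neuronal lists was at 0 in a tumor. The part of cell composition in the results below was not tested, and in bulk tissue fewer cells of a type and less RNA per cell cannot be told apart. Trp53 was at 124 to 130.5 TPM in the tumors labelled Trp53-/- and 47.1 to 49.4 TPM in the Trp53-/- cerebella, above the 33.1 to 37.2 TPM of the Trp53+/+ cerebella, so its level ran against the loss in the labels, and Brca2 was at 8.22 to 14.6 and 3.24 to 4.4 TPM in tumors and Brca2WT cerebella. Values summed over all transcripts of a gene cannot show loss of some exons, so they do not check the genotypes.

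Summed over the 74 members, control cerebellum held 3679.8 to 3937 TPM in its 6 samples, adjacent cerebellum 2838, 3217 and 3497 TPM, and the tumors 472, 783 and 730.1 TPM. All 3 tumors lay below every other sample, and the tumor mean (662 ± 166 TPM, SD, n = 3) was 17.4% of the control mean (3801 ± 101 TPM, n = 6). The Kcnc class supplied the most transcripts in control cerebellum (1039 ± 35.2 TPM), followed by the auxiliary subunits (574 ± 44.8 TPM), Kcnj (493 ± 17.1 TPM) and Kcnk (428 ± 44.2 TPM). Each class was lower in tumors on the summed TPM scale, from 13.8-fold for Kcna and 9.61-fold for the silent subunits down to 2.41-fold for Kcnq and 2.02-fold for the 5 members outside the channel families, leaving aside Kcnb. The 10 highest members of each group held 56.7% of the member transcripts in controls and 55.4% in tumors, and 5 genes were in both lists.

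**Figure D1:**
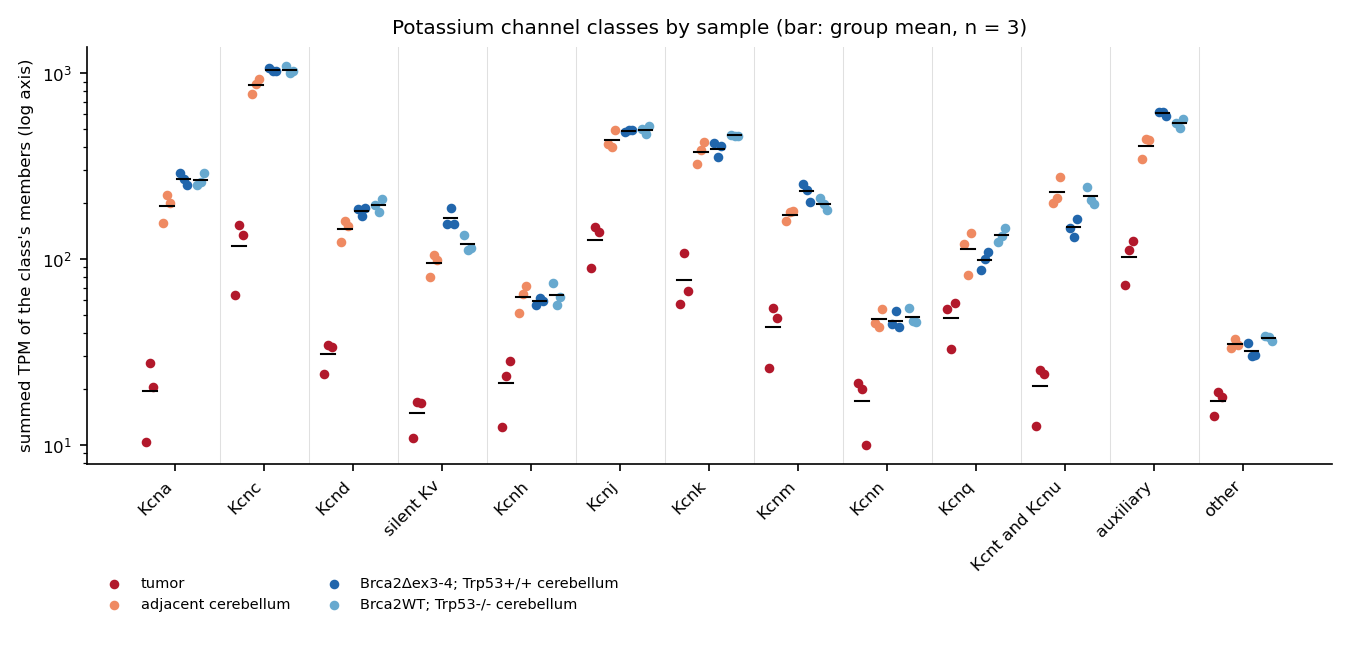
Summed TPM of the members of each potassium channel class except Kcnb (log axis) in each of the 12 samples, with a bar at each group mean (n = 3). The tumors sit below the controls and the adjacent samples in each class drawn, and the Kcna class shows the widest gap, 19.5 against 269 TPM in controls.

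The first comparison asked how expression in the tumors differs from that of cerebellum of the 2 control genotypes together. Most potassium channel genes were lower in tumors: 44 of the 74 members fell and 7 rose (Kcnn4, Kcnj8, Kcnq5, Kcnt2, Kcnh8, Kcng2 and Kcnu1), while 23 did not pass. The filter partly fixed these counts. Of the 44, 7 were under 1 TPM in all tumors and passed it through other samples, and Kcnn4, Kcnt2 and Kcnh8 would not have passed it without the tumors. Kcnq5 reached 1 TPM in no control. Calls came from limma on log2(TPM + 1) and needed an adjusted p under 0.01 together with a change of 1 or more on the log2 scale in either direction. Over all 16498 genes tested, 21.1% were lower and 14.2% higher, beside 59.5% and 9.46% of the members. The median log2 fold change was -1.41 over the members and -0.11 over all genes. All 51 called members had tumor values that did not overlap the 6 controls. The thresholds favor such genes, and the share among all called genes was not computed, so this is not read as a trait of the members. Of the 44 that fell, 31 were lowest in the tumor of GB344. That tumor also held the lowest sums of the granule neuron, Purkinje cell and oligodendrocyte lists, whereas the astrocyte sum was lowest in GB370. The inhibitory interneuron sum was highest in the tumor of GB344, where Pvalb supplied 177 of its 202 TPM. Pvalb and Kit were highest in that tumor, while Gad1, Gad2 and Slc6a5 were lowest there. On this scale fold changes of genes at a few TPM are smaller than the ratios of their TPM.

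**Figure D2:**
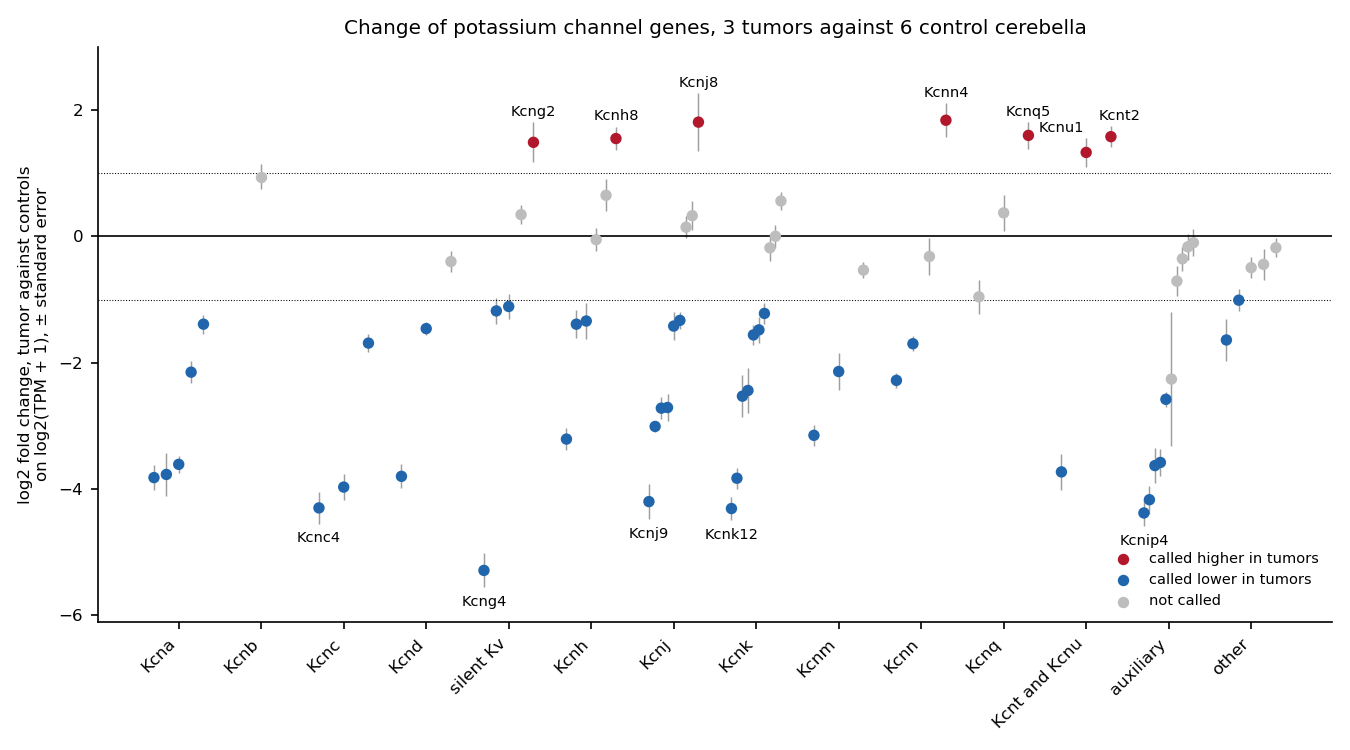
Log2 fold change (± SE) of the members reported here on log2(TPM + 1), 3 tumors against 6 control cerebella, by class. Red and blue points passed both thresholds and dotted lines mark the fold threshold. Blue points run down to -5.29 for Kcng4, and the 7 red points lie between 1.33 and 1.84.

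All 5 Kcna genes, which encode the low-threshold channels of axons and basket cell terminals, fell. Kcna1 was at 2.48, 13.2 and 7.67 TPM in tumors and 94.4 to 113 TPM with a median of 101 in controls, and fell by 3.77 ± 0.34 on the log2 scale (adjusted p = 3.01e-06). Kcna2 was at 6.09, 9.78 and 8.19 TPM against 98.2 to 124 TPM with a median of 107, a fall of similar size (log2 fold change -3.61 ± 0.13, adjusted p = 1.63e-08). For Kcna6 the tumors held 1.35, 3.18 and 3.35 TPM and the controls 43.5 to 57.1 TPM with a median of 46.6 (log2 fold change -3.82 ± 0.19, adjusted p = 6.49e-08). The tumor values of all 3 genes lay below every control, and Kcna1 differed most among tumors. Kcna3 (-2.15) and Kcna4 (-1.39), at a few TPM in controls, were near or under 1 TPM in tumors. Kcna1 and Kcna2 together made up most of the class in both tissues: Kcna1 supplied 36.4% of it in tumors and 38.2% in controls, and Kcna2 44.7% and 40.2%.

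Genes of the Kcnc class, whose channels close quickly and allow fast firing, fell as well. Kcnc1, a main subunit of fast-spiking neurons, was at 15.2, 31.7 and 29.8 TPM in tumors against 345 to 452 TPM with a median of 398 (log2 fold change -3.97 ± 0.21, adjusted p = 7.11e-08), a 15.5-fold lower mean. Kcnc4 was at 0.619, 2.61 and 3.03 TPM against 50.9 to 65.2 TPM with a median of 53.6, a 26.8-fold lower mean and one of the largest falls (log2 fold change -4.30 ± 0.25, adjusted p = 1.36e-07). Both lay below every control in all 3 tumors, and Kcnc2, at 0.175, 0.367 and 0.254 TPM in tumors and 2.55 to 4.16 TPM with a median of 3.0 in controls, fell from a few TPM (-1.69).

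Kcnb2 encodes a slow delayed rectifier of neuronal cell bodies and has been studied by others in SHH medulloblastoma. It was at 2.54, 4.82 and 2.68 TPM in tumors and 0.903 to 1.66 TPM with a median of 1.11 in controls. Its tumor values all lay above the controls, yet its log2 fold change of 0.94 ± 0.20 stayed under the fold threshold (adjusted p = 0.0015). The gene passed with median-of-ratios scaling (1.03), with quantile normalization (1.15), with a pseudocount of 0.1 (1.36), without the tumor of GB344 (1.07) or of GB370 (1.05), and against the Brca2Δex3-4; Trp53+/+ controls alone (1.05).

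Of the Kcnd genes, which carry the A-type current of dendrites, 2 of 3 fell. Kcnd2 was at 5.44, 12 and 9.01 TPM in tumors and 110.2 to 155 TPM with a median of 131 in controls (log2 fold change -3.80 ± 0.19, adjusted p = 5.9e-08). Kcnd3 kept 15.9, 20.1 and 20.1 TPM in tumors against 48.1 to 56.9 TPM with a median of 54.1 (log2 fold change -1.46 ± 0.10, adjusted p = 3.98e-07), a smaller fall. Kcnd1 was at 2.66, 2.45 and 4.42 TPM against 3.6 to 4.91 TPM with a median of 4.69 and did not pass (adjusted p = 0.056), and its values overlapped. Kcnd2 supplied 69.3% of the class in controls, whereas Kcnd3 supplied 61.5% of it in tumors.

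Silent subunits form no channel alone and change the properties of Kcnb channels. Kcng4 showed the largest fall of any member, with 0.994, 2.83 and 3.95 TPM in tumors and 101 to 176 TPM with a median of 135 in controls, a 51.2-fold lower mean (log2 fold change -5.29 ± 0.27, adjusted p = 6.57e-08). It supplied 89.9% to 94.1% of this class in controls and 9.13% to 23.4% in tumors. Kcng2 went the other way, at 1.59, 6.87 and 6.87 TPM in tumors and 0.742 to 1.26 TPM with a median of 0.915 in controls (log2 fold change 1.49 ± 0.32, adjusted p = 0.00174). The tumor of GB344 lay close above the controls for Kcng2 while the other 2 tumors were several-fold higher, and without the tumor of GB359 or of GB370 the call was lost (1.22, adjusted p = 0.0109). It was also lost against either control genotype alone (adjusted p = 0.0188 and 0.0273). Kcns2 was at 7.3, 5.87 and 5.2 TPM in tumors and 3.43 to 5.48 TPM with a median of 4.63 in controls and did not pass (adjusted p = 0.0607). Kcns1 (-1.11) and Kcns3 (-1.18) fell from a few TPM. Without the tumor of GB370, Kcns1 missed the fold threshold (-0.95), as it did with quantile normalization (-0.89).

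Upstream sequences are shown for 3 members with large falls and 1 that rose, so that genes that moved together and apart can be set side by side. RefSeq listed promoters for 53 of the 74 members (GRCm38.p6, the build called mm10). The 250 bases before the start are given 5′ to 3′ on the gene's own strand, which is the minus strand for all 4, chosen from the 11 called members with a single listed start and no annotated exon in the window: Kcnj8 (chr6:142571615-142571864), which rose, and Kcng4 (chr8:119635681-119635930), Kcnk12 (chr17:87797995-87798244) and Kcnj9 (chr1:172329323-172329572), which fell. Capitals mark matches on either strand. The searched motifs were the GC box with the letters GGGCGG, the E-box bound by proneural factors with the letters CAGCTG, the TATA box of core promoters with the letters TATAAA and the site of the SHH effector GLI with the letters TGGGTGGTC.
Kcnj8: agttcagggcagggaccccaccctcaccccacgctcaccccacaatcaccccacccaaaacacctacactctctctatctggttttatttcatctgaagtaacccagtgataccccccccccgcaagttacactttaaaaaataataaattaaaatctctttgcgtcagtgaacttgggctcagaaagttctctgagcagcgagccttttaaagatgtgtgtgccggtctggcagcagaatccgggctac
Kcng4: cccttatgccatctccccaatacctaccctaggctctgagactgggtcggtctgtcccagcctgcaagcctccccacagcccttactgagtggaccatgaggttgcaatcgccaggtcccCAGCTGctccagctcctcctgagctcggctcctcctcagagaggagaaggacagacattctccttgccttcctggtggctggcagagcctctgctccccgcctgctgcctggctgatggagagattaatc
Kcnk12: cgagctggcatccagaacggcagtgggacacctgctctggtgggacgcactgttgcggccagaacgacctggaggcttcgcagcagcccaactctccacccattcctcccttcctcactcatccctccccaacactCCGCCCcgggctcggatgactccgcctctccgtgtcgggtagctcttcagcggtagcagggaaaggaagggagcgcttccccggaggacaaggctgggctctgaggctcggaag
Kcnj9: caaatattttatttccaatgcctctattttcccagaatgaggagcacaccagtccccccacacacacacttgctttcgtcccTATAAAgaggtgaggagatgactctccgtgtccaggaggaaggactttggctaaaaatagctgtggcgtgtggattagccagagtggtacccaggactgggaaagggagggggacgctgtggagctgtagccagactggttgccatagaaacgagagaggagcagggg
Kcng4 held 1 E-box, Kcnk12 1 GC box and Kcnj9 1 TATA box, and Kcnj8 held none of the 4. Of 32536 listed promoters of this length, 33.0% held a GC box, 13.1% the E-box, 12.3% the TATA box and 0.218% the GLI site. Of the 77 listed promoters of members, 45.5%, 26.0%, 2.60% and 0 did. These are matches of letters only.

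The Kcnh family holds the ether-a-go-go, Erg and Elk channels. Kcnh1, of the ether-a-go-go type, was at 0.869, 1.77 and 1.72 TPM in tumors and 17.7 to 27.8 TPM with a median of 21.2 in controls, and fell by 3.21 ± 0.17 on the log2 scale (adjusted p = 8.25e-08). Kcnh2, the Erg channel of heart and brain, was at 7.49, 13.5 and 18.4 TPM against 29.1 to 39.8 TPM with a median of 35.3 (log2 fold change -1.39 ± 0.22, adjusted p = 0.000219) and kept the highest level of the class in both. Kcnh3 fell from a few TPM (-1.34). Kcnh8, of the Elk type, rose, with 1.46, 2.38 and 3.59 TPM in tumors and 0.0510 to 0.263 TPM with a median of 0.128 in controls (log2 fold change 1.55 ± 0.19, adjusted p = 3.21e-05), and every tumor lay above every control. Kcnh5, also studied by others in SHH medulloblastoma, was at 0.557, 2.4 and 1.4 TPM in tumors and 0.213 to 1.09 TPM with a median of 0.497 in controls. The tumor of GB344 lay below the Brca2WT; Trp53-/- cerebellum of GB520, so the groups overlapped, and the gene did not pass (log2 fold change 0.65 ± 0.25, adjusted p = 0.0401). For Kcnh7 the tumors held 1.85, 3.29 and 2.62 TPM and the controls 1.9 to 3.73 TPM with a median of 2.77, a difference near 0 (-0.05, adjusted p = 0.818) whose sign changed with the scaling.

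Among the inward rectifiers, 6 of 9 fell and 1 rose. Kcnj10, the glial channel that buffers potassium, was at 16.9, 30.9 and 14.2 TPM in tumors and 109.5 to 167 TPM with a median of 135 in controls (log2 fold change -2.71 ± 0.22, adjusted p = 1.27e-06). Its partner in glial heteromers, Kcnj16, was at 5.39, 9.45 and 3.69 TPM against 14 to 20.2 TPM with a median of 17.7 (-1.42). Both fell in the tissue in which 5 of 6 astrocyte and Bergmann glia markers fell. Kcnj12, a classical inward rectifier, was at 7.38, 6.88 and 6.67 TPM in tumors and 55.9 to 66.9 TPM with a median of 63.6 in controls (-3.01), the narrowest range among tumors in this class relative to its level, and Kcnj2, of the same type, was at 1.17, 2.67 and 2.0 TPM against 1.35 to 1.9 TPM with a median of 1.58 and did not pass (adjusted p = 0.463).

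Of the subunits of the channels that open after G protein-coupled receptors are activated, 3 passed the filter and Kcnj5 did not. The 3 behaved unlike each other. Kcnj9 was at 3.1, 10.7 and 9.48 TPM in tumors and 125 to 169.7 TPM with a median of 146 in controls, an 18.8-fold lower mean (log2 fold change -4.20 ± 0.28, adjusted p = 3.6e-07). Kcnj3 was at 25.8, 29.5 and 20.3 TPM against 55.5 to 78.3 TPM with a median of 61.9 (log2 fold change -1.33 ± 0.13, adjusted p = 7.66e-06). Kcnj6 was at 17.9, 37.1 and 23.9 TPM against 14.6 to 24.6 TPM with a median of 21.4 and did not pass (0.33, adjusted p = 0.225). In tumors Kcnj3 (21.1%) and Kcnj6 (20.7%) were the largest contributors to the class, while in controls they were Kcnj9 (29.5%) and Kcnj10 (27.5%). Kcnj9 and Kcnj10, 11887 bases apart on chromosome 1, both fell.

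The pore genes of the ATP-sensitive channels moved in opposite directions. Kcnj11 was at 4.06, 8.36 and 4.21 TPM in tumors and 38.4 to 42 TPM with a median of 40.6 in controls (log2 fold change -2.72 ± 0.17, adjusted p = 2.78e-07). Abcc8, its sulfonylurea receptor, fell with it, at 9.02, 14.4 and 7.66 TPM in tumors and 37.4 to 59.95 TPM in controls (-2.23). Kcnj8 was at 7.62, 13.5 and 55.4 TPM in tumors and 3.69 to 5.13 TPM with a median of 4.56 in controls, and every tumor lay above every control (log2 fold change 1.81 ± 0.46, adjusted p = 0.00492). The tumor of GB370 was several-fold above the other 2, and without it the log2 fold change was 1.03. The call was lost without GB361 (adjusted p = 0.0107), GB508 (0.0104) or GB517 (0.0109), with no filter (0.0119) and against either control genotype alone (0.0439 and 0.0455). Abcc9, the receptor subunit that pairs with Kcnj8 and lies 16247 bases from it on chromosome 6, showed the same order among tumors, 4.17, 10.9 and 27.5 TPM, against 4.0 to 4.7 TPM in controls, and did not pass (1.19, adjusted p = 0.0224). Both genes are known from pericytes and smooth muscle, and the summed endothelial and mural markers were 165, 163 and 257 TPM in tumors and 236 to 265 TPM in controls, with 0 of 7 called higher and 2 lower, so the tumor of GB370 was also the highest there. The part of vessels in the rise of Kcnj8 was not tested.

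**Figure D3:**
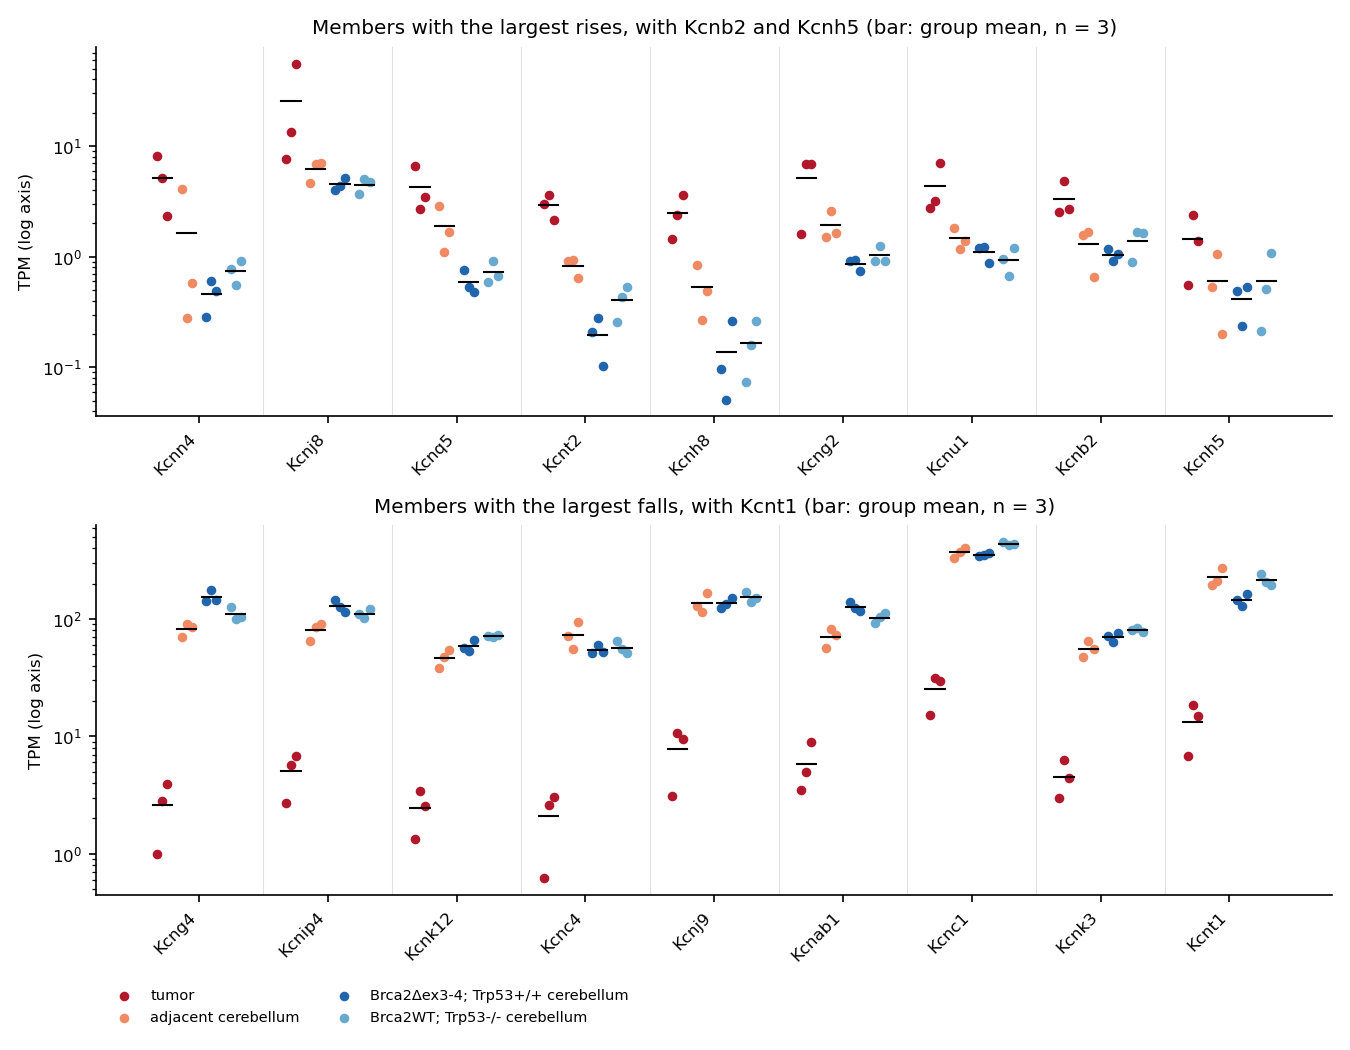
TPM (log axis) of 18 members in each of the 12 samples, with a bar at each group mean (n = 3). The upper panel shows the 7 genes that rose, with Kcnb2 and Kcnh5, whose calls did not pass, and the lower panel the 8 largest falls with Kcnt1. Adjacent cerebellum (orange) lies nearer the controls than the tumors in the lower panel, and the 3 values of Kcnj8 in tumors spread from 7.62 to 55.4 TPM.

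Of the 10 two-pore genes, which carry leak currents, 7 fell and none rose. Kcnk1, the highest of them, was at 14.4, 60.9 and 35.4 TPM in tumors and 166 to 209 TPM with a median of 189.7 in controls (log2 fold change -2.53 ± 0.33, adjusted p = 5.45e-05). Kcnk3 and Kcnk9 encode the acid-sensitive leak channels of granule neurons. Kcnk3 was at 3.01, 6.24 and 4.39 TPM against 63.6 to 84.3 TPM with a median of 76.8 (log2 fold change -3.83 ± 0.17, adjusted p = 3e-08), and Kcnk9 at 17.5, 9.76 and 4.25 TPM against 37.1 to 69.7 TPM with a median of 56.5 (log2 fold change -2.44 ± 0.35, adjusted p = 0.000123). For Kcnk9 the tumor of GB344 was the highest of the 3, unlike the 31 members that were lowest there. Kcnk12 was at 1.32, 3.42 and 2.57 TPM against 53.6 to 73.9 TPM with a median of 68, a 26.9-fold lower mean (log2 fold change -4.31 ± 0.19, adjusted p = 3.16e-08), while its close relative Kcnk13, known from microglia, fell by 1.22 on the log2 scale, with 4.03 to 6.45 TPM with a median of 5.22 in controls. Of the mechanically gated genes, Kcnk10 (-1.56) and Kcnk4 (-1.48) fell, and Kcnk2 was at 6.51, 12.2 and 7.38 TPM in tumors and 7.55 to 12.3 TPM with a median of 9.24 in controls without passing (adjusted p = 0.459). Kcnk6 lay higher in every tumor (4.87, 5.85 and 5.28 TPM) than in any control (at most 3.97 TPM) but under the fold threshold (0.56, adjusted p = 0.00431). Kcnk5 lay between 0.337 and 1.19 TPM in all 12 samples and did not pass (adjusted p = 0.993).

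Of the 7 genes of calcium-activated channels, 4 fell and 1 rose. Kcnma1, the pore of the large-conductance channel, was at 9.71, 5.48 and 7.08 TPM in tumors and 61.4 to 90.4 TPM with a median of 69.4 in controls (log2 fold change -3.15 ± 0.17, adjusted p = 8.24e-08). Its neuronal partner Kcnmb4 was at 15, 48.4 and 40.2 TPM against 112 to 162 TPM with a median of 141 (log2 fold change -2.14 ± 0.30, adjusted p = 8.91e-05), and Kcnmb1, the smooth muscle partner, stayed under the fold threshold (-0.53, adjusted p = 0.00295). Of the small-conductance genes, Kcnn2 was at 8.1, 7.64 and 5.91 TPM in tumors and 34.3 to 45 TPM with a median of 37.7 in controls (log2 fold change -2.28 ± 0.12, adjusted p = 9.12e-08). Kcnn3 fell from a few TPM (-1.70), and Kcnn1 did not pass (-0.32, adjusted p = 0.362).

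Kcnn4, the one that rose, encodes the intermediate-conductance channel best known from blood and immune cells, and it showed the largest rise of any member on log2(TPM + 1), while the ratio of mean TPM was higher for Kcnh8 (16.5-fold) and Kcnt2 (9.69-fold). Kcnn4 was at 8.06, 5.09 and 2.33 TPM in tumors and 0.287 to 0.906 TPM with a median of 0.576 in controls, an 8.58-fold higher mean (log2 fold change 1.84 ± 0.27, adjusted p = 0.000138). Every tumor lay above every control. The adjacent tissue of GB344 held 4.1 TPM, above the tumor of GB370, while the other 2 adjacent samples held 0.280 and 0.574 TPM. Kcnn4 supplied 23.4% to 37.2% of Kcnn transcripts in tumors and 0.643% to 1.97% in controls. The summed microglia markers were 188, 276 and 193 TPM in tumors and 77.2 to 150.2 TPM in controls. Of the 6, 2 were called higher (C1qa and Aif1) and none was at 0. C1qa alone supplied 134, 189 and 128 TPM of the tumor sums. P2ry12 and Tmem119 had lower means in tumors than in controls (4.41 against 7.77 and 7.12 against 8.42 TPM). Cx3cr1 and Csf1r had slightly higher means (11.3 against 9.61 and 22.3 against 20.2 TPM), and none of these was called. The sums did not follow the order of Kcnn4 among tumors. The part of microglia in the rise was not tested.

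**Figure D4:**
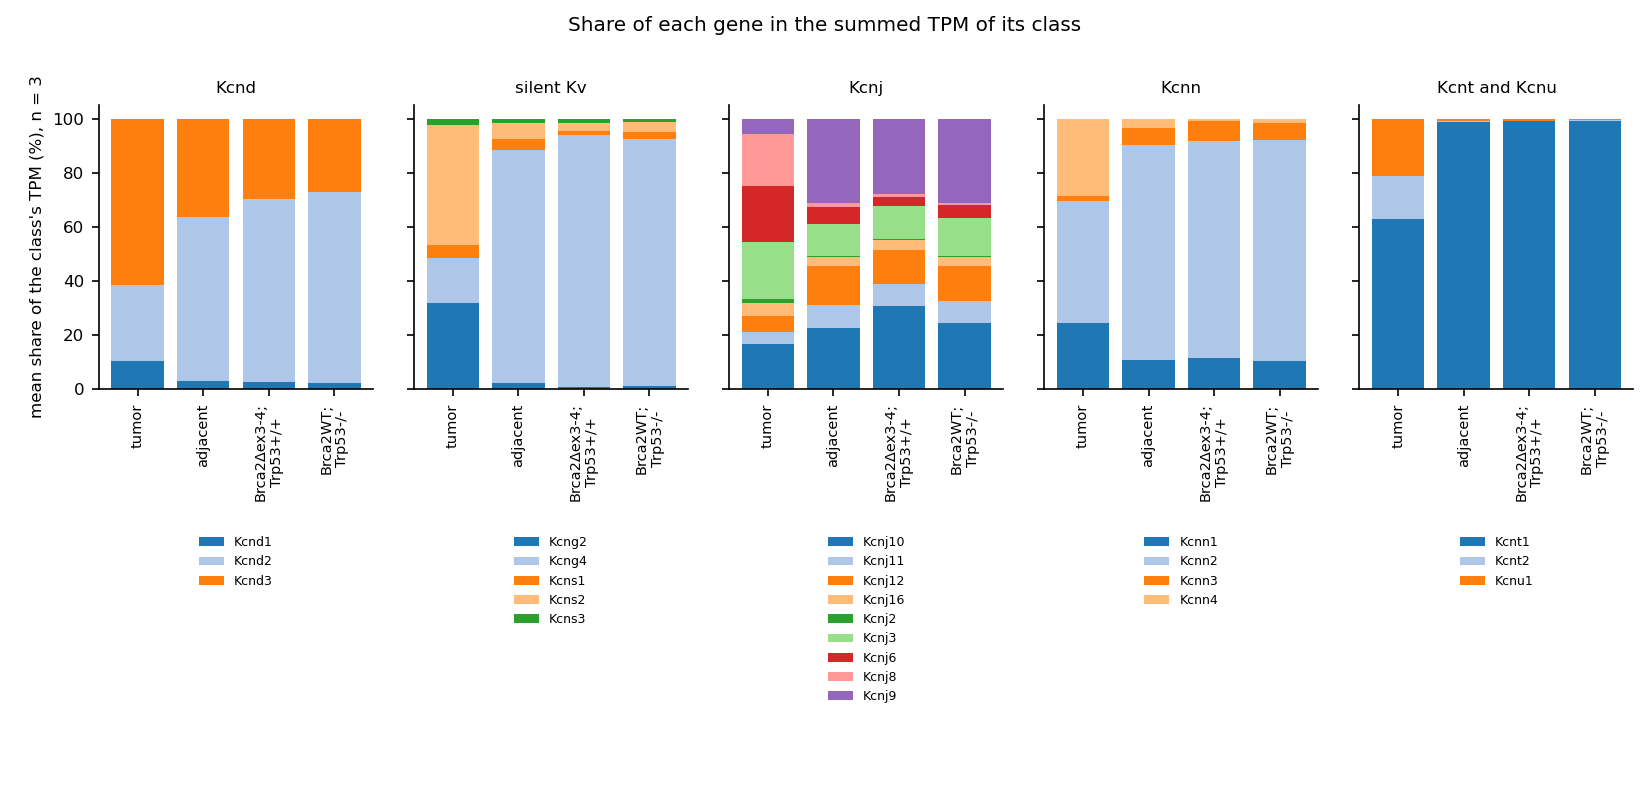
Mean share (%) of each member in the summed TPM of its class, for the 4 groups (n = 3 each), in 5 classes. Tumors differ in make-up from the other groups: Kcnd3 holds 61.5% of Kcnd and Kcnn4 28.7% of Kcnn, beside 28.4% and 1.25% in controls.

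The Kcnq genes, which carry the M current that restrains repetitive firing, were 2.41-fold lower in sum in tumors. Kcnq5 rose, at 6.59, 2.7 and 3.45 TPM in tumors and 0.481 to 0.918 TPM with a median of 0.628 in controls, with no overlap (log2 fold change 1.60 ± 0.21, adjusted p = 6.18e-05). No control reached 1 TPM, so the filter partly fixed this difference. Kcnq3, another gene of the M current, missed only the fold threshold (-0.96, adjusted p = 0.00945), and passed it without the tumor of GB344 (-1.12) or of GB359 (-1.19). Kcnq1, best known from heart and epithelia, did not pass (0.37, adjusted p = 0.269).

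In the class that joins the sodium-activated Kcnt genes with Kcnu1, Kcnt1 fell while Kcnt2 and Kcnu1 rose. Kcnt1 was at 6.85, 18.4 and 14.9 TPM in tumors and 129.5 to 244 TPM with a median of 180.1 in controls, a 13.6-fold lower mean (log2 fold change -3.73 ± 0.28, adjusted p = 8.43e-07). Kcnt2 was at 3.02, 3.62 and 2.16 TPM in tumors and 0.103 to 0.530 TPM with a median of 0.268 in controls (log2 fold change 1.58 ± 0.16, adjusted p = 9.23e-06), a 9.69-fold higher mean. Kcnu1, a channel otherwise known from sperm, was at 2.78, 3.19 and 7.08 TPM against 0.664 to 1.21 TPM with a median of 1.07 (log2 fold change 1.33 ± 0.23, adjusted p = 0.000432), and without the tumor of GB370 it fell under the fold threshold (0.99). Even so, Kcnt1 remained the largest contributor in tumors, at 62.9% of the 3 genes against 99.2% in controls.

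Auxiliary subunits bind the pore proteins and set their traffic and gating. Of the 10 measured, 5 fell and none rose. Kcnip4, a calcium-binding partner of Kcnd channels, was at 2.69, 5.67 and 6.77 TPM in tumors and 102 to 144 TPM with a median of 119 in controls (log2 fold change -4.38 ± 0.21, adjusted p = 4.4e-08). Kcnab1, a partner of Kcna channels, was at 3.5, 4.98 and 8.91 TPM against 91.9 to 141 TPM with a median of 115 (log2 fold change -4.17 ± 0.22, adjusted p = 7.88e-08), and Kcnab2, of the same family, at 15.4, 19.1 and 21.7 TPM against 103 to 129 TPM with a median of 117 (-2.58). Kcnip1 (-3.63) and Kcnab3 (-3.58) fell too. Kcnip3, which is also described as a calcium-sensing repressor of transcription, kept 25.6, 58.3 and 60.9 TPM in tumors against 63.1 to 84.6 TPM with a median of 76 and did not pass (-0.71, adjusted p = 0.0212). Only the tumor of GB344 lay well below the controls for it, and Kcnip3 held 35.4% to 52.3% of the class in tumors and 11% to 14.4% in controls. Kcnip2, Kcne1l and Kcne4 did not pass (adjusted p = 0.113, 0.696 and 0.494).

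The remaining 5 members are 4 RNAs named for a neighbouring channel gene and Kcnrg, a soluble regulator of channel assembly. Kcnmb4os1 (-1.01) and Kcnmb4os2 (-1.64) fell, and both overlap Kcnmb4, which fell by 2.14. Kcnd3os overlaps Kcnd3, and Kcnq1ot1 lies within Kcnq1. Neither passed (adjusted p = 0.127 and 0.305). The library kit does not mark strand, so reads of such pairs cannot be told apart and these values are uncertain, as are those of Kcnip1 and Kcnmb1, which overlap on chromosome 11. Kcnmb4os2 lost its call against either control genotype alone (adjusted p = 0.02 and 0.018), and without the tumor of GB344 its log2 fold change was -1.07. Kcnrg did not pass (-0.49, adjusted p = 0.0248).

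The second comparison set the tumors against the adjacent cerebellum of the same mice. Of the 74 members, 35 fell and 1 rose, beside 17.1% lower and 4.02% higher over all genes tested. Of the 35, 4 were under 1 TPM in all tumors and passed the filter through other samples. The median log2 fold change was -1.28 over the members and -0.16 over all genes. These 35 members were all among the 44 that fell against the controls, and the tumors are the same samples in both. The largest fall was that of Kcnc4, from 71.9, 55.3 and 94.1 TPM in adjacent tissue to 0.619, 2.61 and 3.03 TPM (log2 fold change -4.67 ± 0.39, adjusted p = 0.000385). Kcng4 followed, from 69.8, 90.4 and 85.6 to 0.994, 2.83 and 3.95 TPM (log2 fold change -4.62 ± 0.34, adjusted p = 0.000292). Kcnj9 was at 128, 116 and 166 TPM in adjacent tissue (log2 fold change -4.10 ± 0.41, adjusted p = 0.000599), Kcnt1 at 196, 209.8 and 273 TPM (log2 fold change -4.07 ± 0.34, adjusted p = 0.000388) and Kcnc1 at 332, 377 and 402 TPM (log2 fold change -3.87 ± 0.28, adjusted p = 0.000291). For these 5 genes every tumor lay below every adjacent sample.

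Kcnt2 was the member that rose against adjacent cerebellum, from 0.907, 0.929 and 0.641 to 3.02, 3.62 and 2.16 TPM (log2 fold change 1.09 ± 0.20, adjusted p = 0.0053). This call was lost when the tumor of GB344 (adjusted p = 0.0168), the tumor of GB359 (0.0165) or the adjacent sample of GB344 (0.0143), GB359 (0.0182) or GB370 (0.0189) was left out. The other 6 members that rose against controls lay higher in tumors than in adjacent tissue by 0.84 (Kcnq5, adjusted p = 0.0872) to 1.44 (Kcnj8, adjusted p = 0.112) and did not pass. Kcnh8 came closest (log2 fold change 1.15 ± 0.27, adjusted p = 0.0141). In adjacent tissue the means of all 7 lay between those of controls and tumors, with the granule progenitor sums given above. With the mouse as a block the counts were again 1 and 35. Among the genes reported here, Kcnh2 (adjusted p = 0.00659 with the block and 0.0137 without) was then called lower. Kcnj3 (0.0106 with the block and 0.0032 without), Kcns1 (0.0103 and 0.00653) and Kcnk9 (0.0104 and 0.00313) no longer were.

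Adjacent cerebellum was then set against the controls. No member passed with limma, beside 0.218% of all genes higher and 0.00606% lower, and 28 members had an unadjusted p under 0.05. The share of all genes at that unadjusted level was not computed, so the 28 are not read as a trait of the members. At an adjusted p under 0.05 with no fold minimum, 14 members were lower and 4 higher (18.9% and 5.41%), beside 5.46% and 10.2% of all genes. Kcnma1 came closest to a call, at 38.7, 41.9 and 38.6 TPM in adjacent tissue and 61.4 to 90.4 TPM with a median of 69.4 in controls (log2 fold change -0.85 ± 0.12, adjusted p = 0.00916), and all 3 adjacent samples lay below all 6 controls. The others that were lower included Kcna1 (-0.51), Kcna2 (-0.45), Kcna6 (-0.60) and Kcnab1 (-0.71). Those that were higher were Kcnip2 (0.84), Kcnq5 (0.76), Kcng2 (0.57) and Kcnt2 (0.49). For Kcnq5 no control reached 1 TPM, so the filter partly fixed its higher level in adjacent tissue. Kcnip2 was at 4.11, 3.14 and 8.54 TPM in adjacent tissue against 1.93 to 2.81 TPM with a median of 2.16 in controls and 0.976, 2.54 and 1.39 TPM in tumors, so for this gene adjacent tissue lay above both.

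Summed over members, adjacent tissue held 83.8% of the control mean. By class it ran from 66.2% for the silent subunits and 71.1% for the auxiliary subunits to 101% for Kcnh and 125% for Kcnt with Kcnu. The adjacent sample of GB344 was the lowest of the 3 in total and GB370 the highest, in the reverse order of their progenitor sums.

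The last comparison set the 2 control genotypes against each other. No member passed with limma (0.0121% of all genes were higher in Brca2Δex3-4; Trp53+/+ and 0.00606% lower), and 21 members had an unadjusted p under 0.05. Here too the share of all genes at that level was not computed, and the 21 are not read as a trait of the members. The genotypes held 3775 ± 75.7 and 3828 ± 133 TPM over all members (SD, n = 3 each). Kcnk9 had the smallest adjusted p, at 45.6, 37.1 and 45 TPM in Brca2Δex3-4; Trp53+/+ and 69.7, 67.5 and 69.7 TPM in Brca2WT; Trp53-/- cerebellum (log2 fold change -0.69 ± 0.09, adjusted p = 0.0547). Of the 10 members highest in controls, Kcnt1 showed the widest gap, with 146, 129.5 and 164 TPM in the first genotype and 244, 207 and 196 TPM in the second (log2 fold change -0.55 ± 0.11, adjusted p = 0.104). The values of both genes did not overlap between genotypes. The Purkinje cell markers summed to 5850.1 to 7236 and 4263 to 4616 TPM in these genotypes, with 0 of 5 called.

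Kcne2, a small auxiliary subunit known from the choroid plexus, was named after its values were seen. It was at 18.4, 25.5 and 20.3 TPM in the Brca2WT; Trp53-/- cerebella and 5.0, 0.0475 and 0.220 TPM in the Brca2Δex3-4; Trp53+/+ cerebella, with GB361 between, and at no more than 0.551 TPM in the tumors and adjacent samples. It did not pass between control genotypes (log2 fold change -3.49 ± 0.63, adjusted p = 0.0924). Without GB361 it did (log2 fold change -4.30, adjusted p = 0.00191), and so did adjacent tissue against the Brca2WT; Trp53-/- cerebella alone (-3.95, adjusted p = 0.000576). Kcne2 reached 1 TPM only in the Brca2WT; Trp53-/- cerebella and GB361. The filter therefore partly fixed these differences. The summed choroid plexus markers were 4087, 5189 and 3968 TPM and 887, 29.4 and 37 TPM in the 2 genotypes, 44.6 to 95.1 TPM in adjacent tissue and 50.1 to 56.6 TPM in tumors, with 0 of 6 called between genotypes. The main choroid marker, Ttr, was at 3849 to 5039 TPM in the Brca2WT; Trp53-/- cerebella and 842 TPM in GB361, and Folr1 was at 0 in the tumor of GB344. The means of Ttr, Folr1, Kl, Clic6 and Aqp1 were highest in the Brca2WT; Trp53-/- cerebella. Otx2 went otherwise, with means of 20.9 TPM in tumors, 29.3 in adjacent tissue and 18.8 in those cerebella. In the tumor of GB344, Clic6 alone supplied 41.8 TPM of the sum. How much choroid plexus was taken with each cerebellum was not tested.

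**Figure D5:**
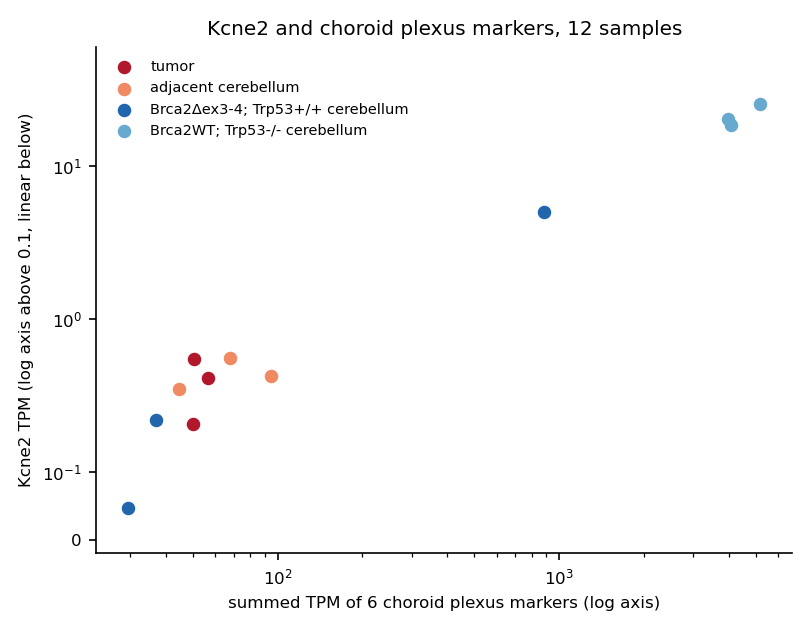
Kcne2 TPM (log axis above 0.1, linear below) against the summed TPM of 6 choroid plexus markers (log axis) in the 12 samples, coloured by group. The 3 Brca2WT; Trp53-/- cerebella lie at the upper right, at 18.4 to 25.5 TPM of Kcne2, with GB361 below them and the other 8 samples at the lower left.

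The channels work beside other proteins, and 28 partner genes were listed, of which 27 were tested: surface partners and scaffolds of the channels, the pumps that restore potassium, and Hcn pacemaker channels. The list was written from general knowledge and is not a random set of genes. Against the controls 21 of the 27 fell and 1 rose, with a median log2 fold change of -2.28. Over all genes tested, 21.1% were lower and 14.2% higher, with a median of -0.11. Dpp10, a surface partner of Kcnd channels, showed the largest fall, at 0.820, 3.6 and 4.07 TPM in tumors and 85 to 133 TPM in controls (log2 fold change -4.89 ± 0.29, adjusted p = 1.66e-07). Atp1b1, a subunit of the sodium pump, fell as well, with 29.1, 70.7 and 70.1 TPM in tumors and 1249.7 to 1448 TPM in controls (log2 fold change -4.65 ± 0.24, adjusted p = 6.77e-08). Atp1b3, another pump subunit, lay higher in tumors, 257, 270.2 and 278 against 172 to 201 TPM, under the fold threshold (0.55, adjusted p = 5.28e-05). Lrrc55, an auxiliary subunit of the large-conductance channel, was the one that rose, at 8.84, 9.76 and 3.6 TPM against 1.63 to 3.62 TPM (log2 fold change 1.21 ± 0.28, adjusted p = 0.00303). Its tumor of GB370 fell inside the control range, and without the tumor of GB344 or of GB359 the call was lost (adjusted p = 0.0159 and 0.0183). Against adjacent tissue 21 fell and 0 rose, beside 17.1% lower and 4.02% higher over all genes tested. No partner passed in the other 2 comparisons.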

How the data were processed

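RNA from 12 mouse samples was selected for poly(A), made into libraries with a kit that does not mark strand, and sequenced by the authors, who estimated transcript levels with Salmon 0.8.1 on mm10 gene models. The deposited values are TPM per gene, a unit without read depth, so no counting intervals could be given, and the authors' count test could not be repeated. All 12 sample columns were mapped to their labels and no other column was left over. The submitters' labels named no batch, and no 2 samples held identical values. The study names both Genewiz and a Rockefeller University center for its RNA sequencing. The sources used here do not say which sample went where, so a difference between places could not be checked.

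The 16498 genes at 1 TPM or more in 3 or more samples were tested with limma 3.58.1 in R 4.3.3 on log2(TPM + 1), each fit using only the groups compared, with Benjamini-Hochberg adjustment over all genes tested. Each fold change is on that scale with its SE, which understates changes of low genes. Mice are the replicates (n = 3 per group). Tumor and adjacent samples were paired by mouse: their deviations from the group means correlated at 0.2275, 0.1481 and 0.1477, so a fit with the mouse as a block was also run. Named members were the highest of each class and group, the largest calls of each comparison, Kcnh5 and Kcnb2; other members were named after their values were seen. The members and lists were chosen with earlier results of these data known. The code was tested on simulated data. Alternatives were the pseudocount (0.1), the filter, 2 scalings, eBayes without trend, all groups in one fit, other thresholds, each control genotype alone and each sample left out. Some genes are not reported here.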

Additional observations from a re-analysis of the deposited data

Results flagged for a closer look

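Among the 6 control cerebella, 64 values (members named by the rule and class sums) were searched for a sample far from the others, and 2 were found, where chance gives about 1 in 20. Kcnh5 was at 1.09 TPM in the Brca2WT; Trp53-/- cerebellum of GB520 and at 0.213 to 0.532 TPM in the other 5 controls. The summed Kcnh class was 74.1 TPM in the Brca2WT; Trp53-/- cerebellum of GB517 and 56.5 to 62.2 TPM in the others.

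A few potassium channel genes that stayed under the expression filter, and so entered no comparison, exceeded 1 TPM and the range of the controls in 1 or 2 samples of the tumor mice. Kcna5, a voltage-gated channel of the Kcna class, reached 1.45 TPM in the adjacent cerebellum of GB344 and 1.47 TPM in that of GB370, and was at 0.911 TPM in that of GB359, so all 3 adjacent samples lay above the 0.106 to 0.669 TPM of the controls. Kcnh6, an Erg channel, reached 1.70 TPM in the adjacent cerebellum of GB370, beside 0.262 to 0.962 TPM in controls. Kcne1, the partner of Kcnq1, reached 1.14 TPM in the tumor of GB370, beside 0 to 0.0350 TPM. Kcnk16, a two-pore channel, was at 1.15 TPM in the tumor of GB344 and listed at 0 in every control. Kcnh6, Kcne1 and Kcnk16 each rest on 1 library, read depth is unknown at these levels, and none of the 4 genes was tested.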

How the results depend on the processing

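Of the values recomputed for genes named by the rule, 1093 kept their direction and side of the threshold, 25 lost a call, 17 gained one and 7 changed sign. Counts of members called were recomputed too, as were log2 ratios of summed class TPM, tumors to controls, with median-of-ratios scaling. Of these counts and ratios together, 144 stayed the same and 15 moved. A count stayed if within 1.5 times, and a ratio if it shifted by less than the SD over tumors. Against the controls, the count of members that rose became 1 with a filter at 5 TPM. That filter kept only 49 of the 74 members in each comparison, so the members under it were not tested again. Leaving out each sample gave 6 to 8 that rose and 43 to 46 that fell. Against adjacent cerebellum, the count that rose became 0 with the filter at 5 TPM, 2 with median-of-ratios scaling, 4 with quantile normalization, 3 with all 4 groups in one fit, 4 at an adjusted p under 0.05 with no fold minimum, and 0 to 2 when each sample was left out, while 27 to 35 fell. With the mouse as a replicate block the counts were 1 and 35, and the block changed no other call of the genes reported here than those given above. Adjacent cerebellum against controls gave 4 higher and 14 lower at an adjusted p under 0.05, and 1 lower (Kcne2) against the Brca2WT; Trp53-/- cerebella alone. The control genotypes gave 1 lower (Kcne2) without GB361, 0 to 1 over all samples left out. Kcne2 passed the filter only through the Brca2WT; Trp53-/- cerebella and GB361, so these calls are partly fixed.

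The sign changed for members near 0. Kcnh7 was 0.0285 with median-of-ratios scaling, 0.14 with quantile normalization and 0.0122 against the Brca2WT; Trp53-/- cerebella alone, and -0.19 to 0.10 as each sample was left out. Kcnn1 was 0.18 without the tumor of GB370 (range -0.67 to 0.18), and Kcnq1ot1 0.0309 with quantile normalization. Over all genes, calls against adjacent cerebellum were 19.1% higher, 35.8% with median-of-ratios scaling and 42.7% with quantile normalization, and these scalings moved the median of all genes in that comparison from -0.16 to 0.02 and 0.13. The cause of these changes was not tested. A group size of 3 mice and unknown depth limit what could be found among members at a few TPM.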
